A study of Mus musculus with 3 samples.

Results

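Solute carriers are membrane proteins that move ions, sugars, amino acids, nucleotides and vitamins across the plasma membrane and the membranes of mitochondria, lysosomes, Golgi and vesicles. The genes described here are the protein-coding mouse genes of GENCODE M21 whose symbol begins with Slc and a digit. The 4 carriers of iron and of the main osteoclast bicarbonate exchange (Slc4a2, Slc11a1, Slc11a2 and Slc40a1) were left out by the rule. Of 367 such genes in the annotation, 211 had a transcript in the table of mRNAs, and the other genes were not analysed here. Among the 211, 175 had 50 or more reads over the 3 libraries and 36 had fewer. The lowest total inside this limit was 56 reads and the highest outside it was 46. The 36 genes below the limit held 457 reads in all and are not named singly.

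Osteoclasts arise by fusion of macrophage precursors, and they need large fluxes of protons, chloride, bicarbonate and fuel to resorb bone. Their lysosome-related machinery, mitochondria and nutrient carriers change during this differentiation. Apoptotic bodies (ABs) are membrane-bound vesicles that a dying cell sheds, and they carry RNA of the parent cell.

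The study sequenced 1 library each of ABs from bone marrow macrophages (BMM-ABs), preosteoclasts (pOC-ABs) and mature osteoclasts (mOC-ABs) of C57BL/6 mice aged 11 weeks. BMMs of all groups were grown with M-CSF at 50 ng/ml. The pOC cultures then received RANKL at 100 ng/ml with M-CSF at 30 ng/ml for 24 h, and mOC cultures the same for 72 h or more. Per the labels, apoptosis was induced in all of them with alendronate at 500 μM for 12 h. The study's text instead names staurosporine, M-CSF at 50 ng/ml beside RANKL and a longer exposure to RANKL for mOCs. The titles of the samples name cells, yet the series is described as one of ABs, and they are treated as such here. Because each group had 1 library, there were no replicates and no test of conditions was made. Whether a difference reflects fewer cells of a type or less RNA per cell cannot be told apart in such bulk samples.

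Ratios were taken in 3 comparisons that share libraries. G1 set pOC-ABs and G2 set mOC-ABs against BMM-ABs, and G3 set mOC-ABs against pOC-ABs. Reads of all listed transcripts were summed per gene and divided by the total of the mRNA table, which was 9100082, 7387317 and 7705592 in the BMM, pOC and mOC libraries. Ratios are given as log2 values with a 95% Clopper-Pearson interval that covers counting error only. A gene was past the limit when its ratio was above 2 or below 0.5. Levels of different genes are compared only as FPKM summed over transcripts. Where 3 values follow each other, they run from the BMM to the pOC to the mOC library, and a log2 ratio given without a comparison is that of G2.

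The labels were checked against marker genes. Of 10 listed osteoclast markers, Calcr was not in the table, and the other 9 summed to 345, 581 and 1870 RPM (reads over the mRNA table's own total) in the BMM, pOC and mOC libraries, although the integrin gene Itgb3 had 6, 3 and 0 reads. Most of the reads in this sum were those of Nfatc1, with 2566, 2772 and 8463 of 3139, 4292 and 14413. Ctsk had 180, 171 and 1001 reads. The 8 macrophage markers summed to 5750, 2742 and 1790 RPM, and among them Lyz2 had 28844, 9854 and 3170 reads. Cd68 was nearly level at 729, 649 and 656 RPM, and Csf1r was lowest in pOC-ABs, with 1085, 357 and 506 RPM. The markers of B cells, T cells, stroma, megakaryocytes and endothelium that the table lists had between 0 and 47 summed reads per library. None of the listed neutrophil or erythroid markers was in the table. These marker shifts ran along the same libraries as every ratio below, and their part in the ratios was not tested.

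The 250 bases before the RefSeq start site (GRCm38.p6) are shown for 4 genes, picked as examples with their values known. Slc9b2 and Slc6a4 had the highest ratios in mOC-ABs, Slc37a2 was at its highest in the same library, and Slc7a11 stands for the amino acid carriers that were lower there. The windows are chr3:135307450-135307699 (plus strand), chr11:76998347-76998596 (plus strand), chr9:37255739-37255988 (minus strand) and chr3:50443614-50443863 (minus strand), each written 5′ to 3′ toward the start site. Capitals mark matches to TGACTCA or TGAGTCA, the AP-1 element and its reverse complement, or to TGATGNAA, the core of the amino acid response element, on either strand.
Slc9b2: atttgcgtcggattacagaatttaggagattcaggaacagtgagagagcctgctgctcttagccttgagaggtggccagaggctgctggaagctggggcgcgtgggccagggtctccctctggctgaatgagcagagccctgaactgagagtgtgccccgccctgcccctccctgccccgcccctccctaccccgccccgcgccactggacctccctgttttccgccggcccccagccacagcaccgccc
Slc6a4: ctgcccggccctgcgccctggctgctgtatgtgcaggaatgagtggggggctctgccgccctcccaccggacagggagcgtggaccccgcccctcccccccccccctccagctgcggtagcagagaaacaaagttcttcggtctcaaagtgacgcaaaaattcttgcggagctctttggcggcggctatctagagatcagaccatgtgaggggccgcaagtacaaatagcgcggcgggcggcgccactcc
Slc37a2: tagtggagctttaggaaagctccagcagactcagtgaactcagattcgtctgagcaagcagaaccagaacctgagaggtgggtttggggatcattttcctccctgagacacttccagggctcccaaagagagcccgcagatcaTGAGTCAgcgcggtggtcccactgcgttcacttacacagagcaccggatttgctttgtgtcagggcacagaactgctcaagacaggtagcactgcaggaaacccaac
Slc7a11: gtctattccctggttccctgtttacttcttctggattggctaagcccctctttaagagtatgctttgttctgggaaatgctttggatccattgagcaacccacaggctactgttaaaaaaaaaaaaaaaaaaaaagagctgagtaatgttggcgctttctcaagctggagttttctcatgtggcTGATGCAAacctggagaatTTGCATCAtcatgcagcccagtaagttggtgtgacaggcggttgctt
The Slc37a2 window held 1 AP-1 match, 107 bases before the start. The Slc7a11 window held TGATGNAA at 66 and at 47 bases before the start, once on each strand. Neither the Slc9b2 nor the Slc6a4 window held any of the searched letters. In windows that also include the 50 bases after the start, an AP-1 match was found in 3.21% of the 187 promoters of the 135 solute carrier genes with an entry, in 3.45% of the 10563 promoters of protein-coding genes with 50 or more reads and in 5.20% of all 32851 promoters. TGATGNAA was found in 3.21%, 2.28% and 3.97% of these sets. CACGTG, the E-box read by basic helix-loop-helix factors, was found in 13.9%, 10.3% and 7.15%. These matches describe letters and no binding.

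The solute carriers took a smaller share of the mRNA reads in both RANKL libraries than in BMM-ABs. They held 1.23% of the reads of BMM-ABs (111606 reads), 0.865% of those of pOC-ABs (63865 reads) and 0.985% of those of mOC-ABs (75922 reads). The 36 mitochondrial carriers of the Slc25 family kept 0.283%, 0.284% and 0.295%, with Wilson intervals of 0.280% to 0.287%, 0.280% to 0.288% and 0.292% to 0.299%. The remaining carriers held 0.941%, 0.579% and 0.688%, so that the lower totals lay outside the mitochondrial family. All protein-coding genes together held 89.9%, 84.8% and 87.4% of the mRNA reads.

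In G1, 4 of the 175 genes were above 2 and 33 were below 0.5, and the corresponding shares of all 10391 protein-coding genes with 50 or more reads were 2.61% and 4.94%. In G2, 10 were above 2 and 29 below 0.5, against 2.68% and 7.75% of all genes. In G3, 8 were above 2 and 6 below 0.5, against 2.23% and 4.91%. The share of carriers below 0.5 was 18.9% in G1 and 16.6% in G2. The median log2 ratios of the carriers in G1, G2 and G3 were -0.50, -0.45 and 0.02, and those of all protein-coding genes were -0.05, -0.08 and -0.05.

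The 36 Slc25 genes had a median log2 ratio of 0.03 in G1 and 0.04 in G2, with 0 genes below 0.5 in either and 2 above 2 in G2. The other 139 had medians of -0.59 and -0.60, with 33 and 29 genes below 0.5. Of these 139, 85.6% had a log2 ratio below 0 in G1 and 83.5% in G2, while over all genes these shares were 53.7% and 57.6%. The intervals lay wholly below 0 for 104 of the 139 (74.8%) in G1 and for 92 (66.2%) in G2, against 34.4% and 35.8% of all genes.

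**Figure D1:**
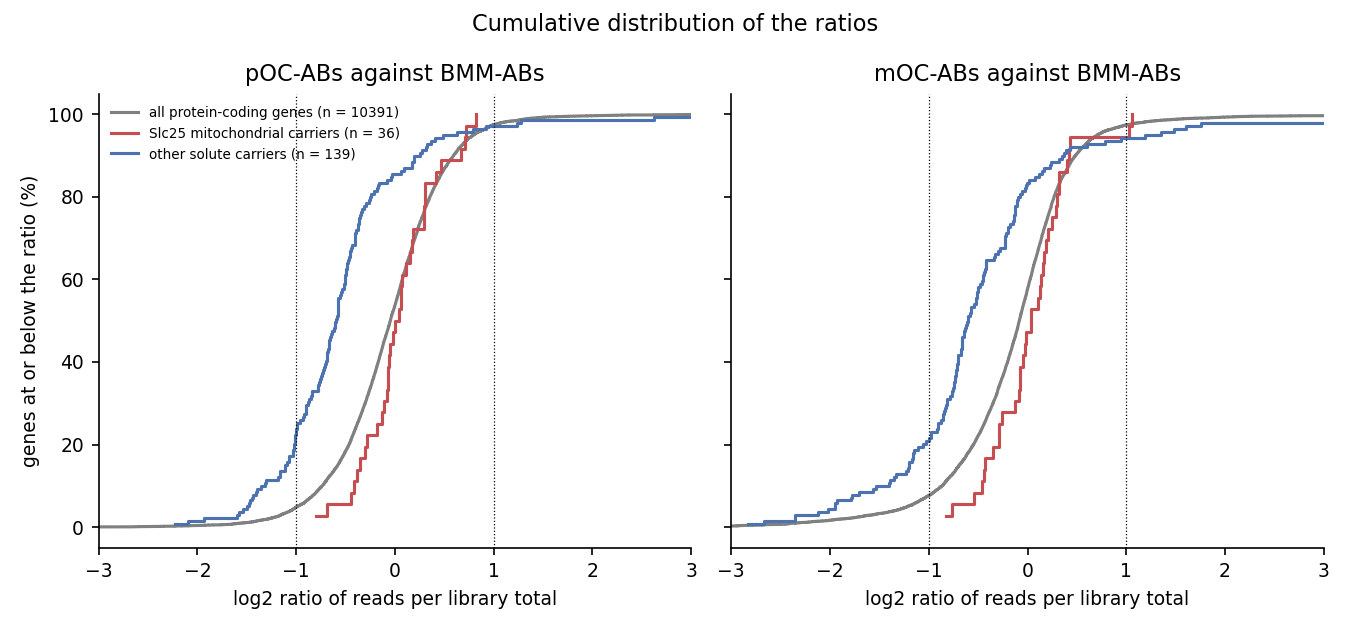
Cumulative share of genes (y axis, percent) at or below each log2 ratio (x axis) in pOC-ABs and mOC-ABs against BMM-ABs, for all 10391 protein-coding genes, the 36 Slc25 carriers and the other 139 solute carriers, with dotted lines at the limits of 0.5 and 2. The curve of the other carriers lies to the left over most of its course, with medians of -0.59 and -0.60, while the Slc25 curve runs near that of all genes.

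Length and membrane topology were set beside this difference, with groupings chosen after the values were seen. Genes with longer transcripts had lower ratios in general, with an all-gene median in G1 of 0.14 in the shortest quartile (up to 1970 bases) and -0.18 in the longest (above 4583 bases). The carriers outside Slc25 had G1 medians of -0.26, -0.58, -0.70 and -0.65 in the 4 quartiles, with 6, 44, 50 and 39 genes, and the Slc25 carriers -0.01, -0.06, 0.08 and 0.07, with 14, 5, 14 and 3 genes. The 141 genes named Tmem, which encode other membrane-spanning proteins, had medians of -0.32 in G1 and -0.30 in G2, and the 24 Abc transporters -0.51 and -0.30. The lower ratios were seen in more membrane protein genes than the solute carriers, and their relation to length was not tested further.

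By transport class, most classes outside mitochondria had negative medians in both comparisons with BMM-ABs. Over all genes, 2.68% were above 2 in G2 and 7.75% were below 0.5. The 27 carriers of amino acids, amines and peptides had a median of -0.78 in G2, with 3 genes above 2 and 12 below 0.5. The 20 carriers of sodium, protons, calcium, chloride and bicarbonate had -0.80, with 2 above and 6 below. The 20 carriers of zinc, copper and magnesium had -0.66, with 0 above and 1 below, and 19 of them had a negative value. The 13 carriers of hexoses, sugar phosphates and inositol had -0.52, the 10 of vitamins, choline and heme -0.55, the 7 of monocarboxylates and dicarboxylates -0.60, and the 20 nucleotide sugar carriers of the Golgi and ER -0.34. The 4 proteins that are only named after a carrier, among them the scaffold Slc9a3r1, had a median of 0.23.

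**Figure D2:**
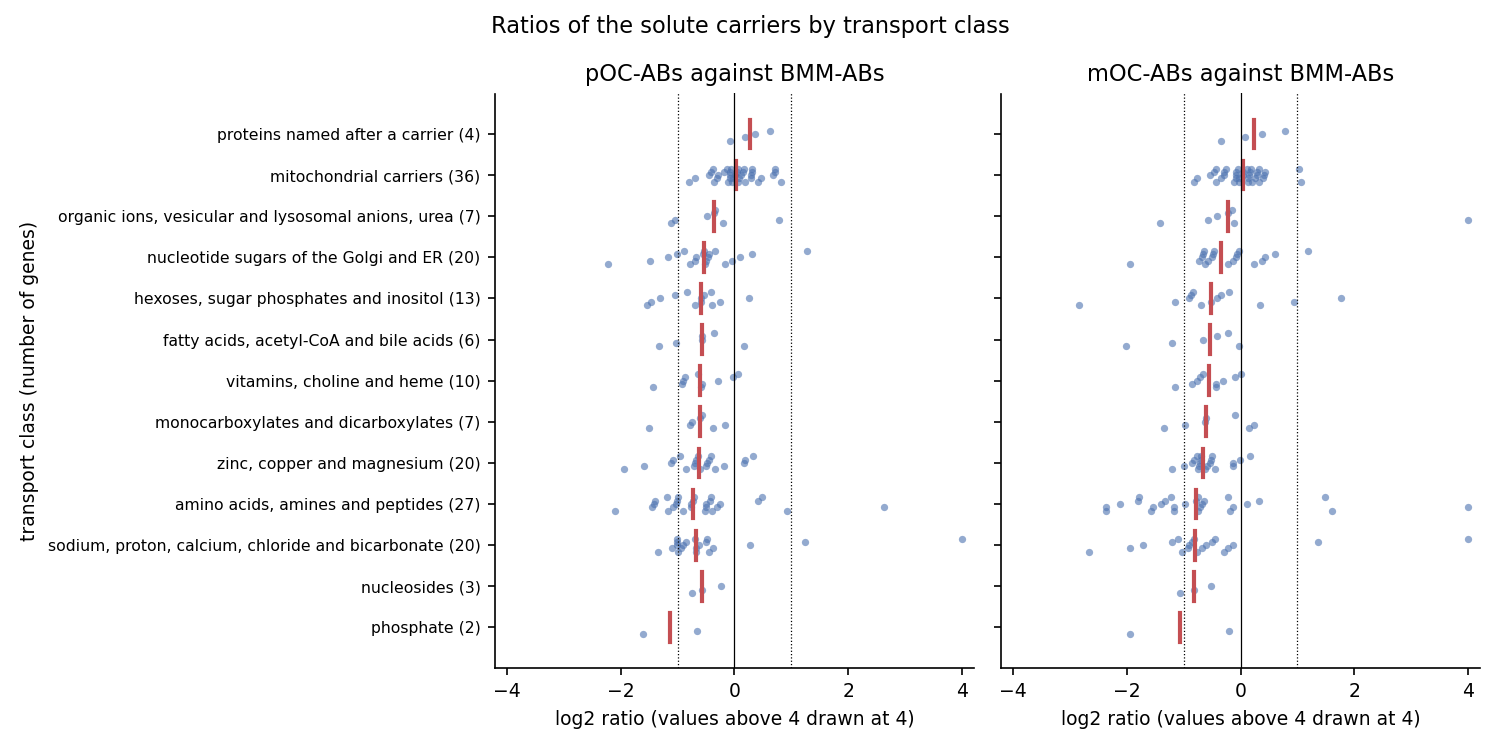
Log2 ratio (x axis) of each of the 175 solute carriers by transport class (y axis, number of genes in brackets), in pOC-ABs and mOC-ABs against BMM-ABs. Points are genes, red bars are class medians and dotted lines mark ratios of 0.5 and 2. Mitochondrial carriers centre on 0, and the highest values lie in the amino acid and ion classes. The lowest value lies in the nucleotide sugar class for pOC-ABs and in the hexose class for mOC-ABs.

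Ranked per length, the carriers of mitochondria led the family. Slc25a5, which exchanges ADP for ATP across the inner mitochondrial membrane, had a summed FPKM of 439, 439 and 433 in the BMM, pOC and mOC libraries. Slc25a3, the mitochondrial phosphate carrier, had FPKM of 312, 285 and 367. Next came Slc25a39, a carrier linked to mitochondrial glutathione, with 215, 160 and 193. Among the 12 genes with the highest mean level were also Slc25a4 (a further ADP/ATP carrier), Slc25a11 (oxoglutarate and malate) and Slc25a1 (citrate), with mean FPKM of 103, 91.9 and 82.8. The 3 adenine nucleotide and phosphate carriers had log2 ratios from -0.13 to 0.18 in G1 and from -0.03 to 0.20 in G2, and none was past the limit. Slc25a5 has processed copies in the genome, so that its reads are uncertain.

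The other 6 places went to plasma membrane carriers of osmolytes, fuels and amino acids. Slc6a12, a betaine and GABA carrier, had FPKM of 167, 118 and 198. Slc27a1, a fatty acid carrier and acyl-CoA synthetase, had 140, 107 and 136, but 87.8%, 91.6% and 94.1% of its reads lay on the retained intron Slc27a1-205. Slc6a6, the taurine carrier, had 188, 73.7 and 103. Slc2a1, the basal glucose carrier, had 128, 54.6 and 66.6. Slc3a2, the heavy chain that brings light-chain amino acid carriers to the plasma membrane, had 112, 80.2 and 51.0. The lactate exporter Slc16a3 had 124, 45.8 and 61.2.

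**Figure D3:**
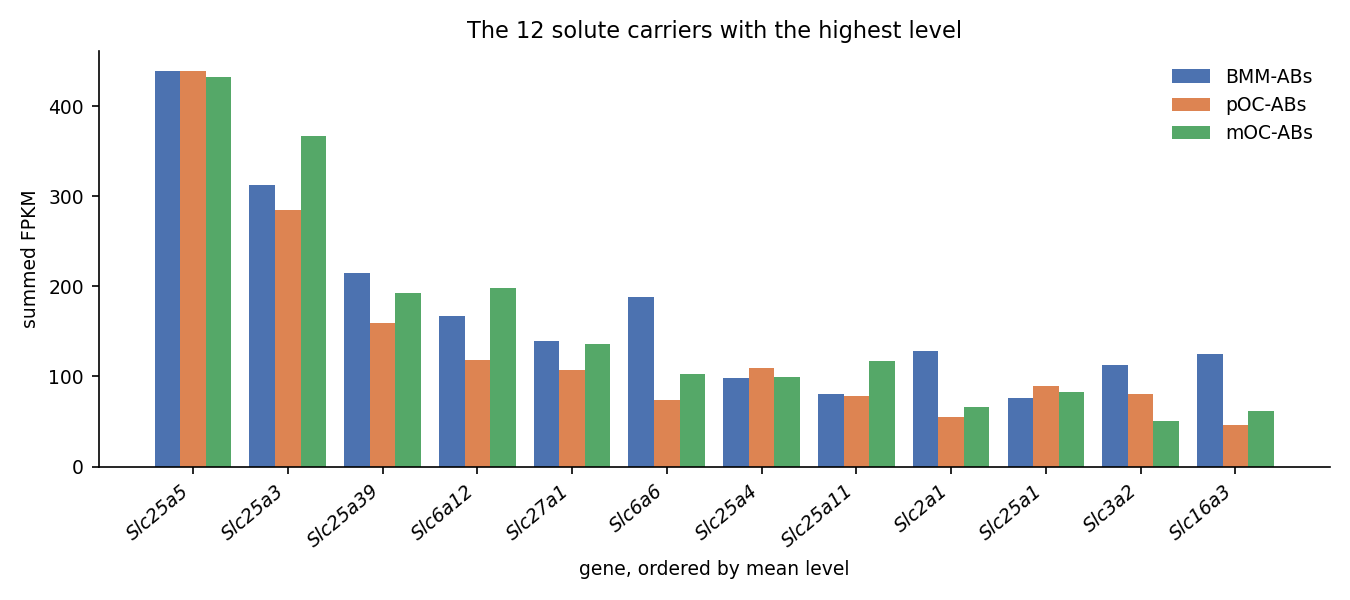
Summed FPKM (y axis) of the 12 solute carriers with the highest mean level (x axis) in the 3 libraries, 1 library a bar and no error bar. Slc25a5 stood at 439, 439 and 433, while Slc6a6, Slc2a1 and Slc16a3 were highest in BMM-ABs and lowest in pOC-ABs.

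Among mitochondrial carriers past the limit, Slc25a43 had 98, 106 and 169 reads in the BMM, pOC and mOC libraries, a G2 value of 1.03 (0.66 to 1.40). It lies 18448 bases from Slc25a5 on the X chromosome and on the same strand, while Slc25a5 had a G2 value of -0.03 (-0.09 to 0.03). Slc25a11 had 1179, 925 and 1317 reads, and its G2 value of 0.40 (0.29 to 0.51) was within the limit. At the low end of the family was Slc25a37, the mitochondrial iron importer, with 758, 381 and 363 reads and a G2 value of -0.82. It was named after its values were seen, and 83.4%, 81.6% and 85.7% of its reads lay on the retained intron Slc25a37-203.

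The highest ratios belonged to carriers of ions and monoamines. Slc9b2, a sodium-proton exchanger known from osteoclasts, had 3, 58 and 269 reads in the BMM, pOC and mOC libraries. Its log2 ratio was 4.57 (2.96 to 6.89) in G1, 6.73 (5.16 to 9.01) in G2 and 2.15 (1.74 to 2.59) in G3. Per length it reached an FPKM of 18.1 in mOC-ABs. In that library 167 of the 269 reads lay on the protein-coding transcript Slc9b2-201 and 64 on the retained intron Slc9b2-202.

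Slc6a4, the serotonin carrier of the plasma membrane, had 1, 5 and 295 reads, with 8.44 (5.96 to 13.75) in G2 and 5.82 (4.58 to 7.46) in G3. In mOC-ABs 276 of its reads lay on the protein-coding transcript Slc6a4-201, which had 0 reads in the other libraries. Its G1 interval of -0.54 to 8.19 held 0, so that a difference between BMM-ABs and pOC-ABs was not detectable at this depth. Slc18a1, which loads monoamines into vesicles, had 5, 7 and 72 reads and 4.09 (2.80 to 5.75) in G2. Its span overlaps Atp6v1b2 on the opposite strand, a proton pump subunit gene with 2153, 2195 and 5002 reads, and since strand is not stated the reads of Slc18a1 are uncertain.

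Slc37a2, a sugar phosphate exchanger of the ER and of osteoclast lysosomes, had 790, 538 and 1286 reads. Its G3 value was 1.20 (1.05 to 1.34) and its G2 value of 0.94 (0.81 to 1.07) fell short of the limit. With summed FPKM the G3 value was 0.80, below the limit. Of the 1286 reads in mOC-ABs, 1226 lay on Slc37a2-201. Slc45a3, a sugar carrier of the prostein family, had 60, 58 and 172 reads, with 1.76 (1.33 to 2.21) in G2 and 0.25 (-0.29 to 0.80) in G1.

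Slc35d1, which brings UDP-sugars into the ER, had 58, 114 and 112 reads and was above 2 in G1 at 1.28 (0.81 to 1.76) and in G2 at 1.19 (0.72 to 1.67). With summed FPKM these values were 0.56 and 0.76. The potassium-chloride cotransporter Slc12a5 had 24, 46 and 52 reads and a G2 value of 1.36 (0.63 to 2.12).

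Several high reads in mOC-ABs belonged to carriers of organic osmolytes, a list of 6 genes drawn up after their values were seen. Slc6a13, a GABA and taurine carrier, had 381, 585 and 982 reads and log2 ratios of 0.92 (0.73 to 1.11) in G1 and 1.61 (1.43 to 1.78) in G2. Slc6a12 follows it on chromosome 6 on the same strand, with a gap of 5342 bases, and had 2425, 1488 and 2561 reads, a G1 value of -0.40 (-0.50 to -0.31) and a G2 value of 0.32 (0.24 to 0.40). The neighbours therefore differed in G1, where their intervals do not overlap and lie on either side of 0.

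Slc6a8, the creatine carrier, had 453, 514 and 1073 reads, 1.48 (1.32 to 1.65) in G2 and 1.001 (0.85 to 1.16) in G3. Of the 1073 reads in mOC-ABs, 571 lay on Slc6a8-202, a transcript annotated for nonsense-mediated decay that had 0 reads in BMM-ABs and in pOC-ABs. On protein-coding transcripts alone its G3 value was -0.25 and its G2 value 0.70, so the direction in G3 turned with the transcripts counted. Slc5a3, the sodium-coupled myo-inositol carrier, had 3437, 1919 and 3708 reads and a G2 value of 0.35 (0.28 to 0.42), and its span overlaps that of Mrps6 on the same strand, so that its reads are uncertain.

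The taurine carrier Slc6a6 and the neutral amino acid carrier Slc38a2 complete this list. Slc6a6 held the most reads of any solute carrier in BMM-ABs, with 8104, 2480 and 3983 reads. Its G1 value was -1.41 (-1.47 to -1.34), its G2 value -0.78 (-0.84 to -0.73) and its G3 value 0.62 (0.55 to 0.70). Slc38a2 had 2940, 1413 and 2197 reads, with -0.76 (-0.85 to -0.66) in G1 and -0.18 (-0.26 to -0.10) in G2.

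The carriers Slc2a1, Slc16a3 and Slc2a3 of glucose and lactate had their lowest RPM in pOC-ABs. Slc2a1 had 2936, 861 and 1358 reads in the BMM, pOC and mOC libraries, with -1.47 (-1.58 to -1.36) in G1 and -0.87 (-0.97 to -0.78) in G2. Slc16a3, which exports lactate, had 2489, 717 and 1073 reads and -1.49 (-1.62 to -1.37) in G1 and -0.97 (-1.08 to -0.87) in G2. The monocarboxylate carrier Slc16a1 had 488, 266 and 272 reads, or 53.6, 36.0 and 35.3 RPM, and -0.57 (-0.80 to -0.36) in G1, and it was about as low in mOC-ABs as in pOC-ABs. Of these 4 glycolysis and hypoxia carriers, 3 were below 0.5 in G1 and 0 in G2, against 4.94% and 7.75% of all genes. The medians of the 4 were -1.25 and -0.74.

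Slc2a3, the fourth of them and a high-affinity glucose carrier, had 326, 129 and 192 reads and a G1 value of -1.04 (-1.34 to -0.74). On protein-coding transcripts alone that value was 0.49, so its direction depended on the transcripts counted. Slc2a6, a hexose carrier of lysosomes in macrophages, instead was lowest in mOC-ABs, with 892, 250 and 106 reads, -1.53 (-1.74 to -1.33) in G1 and -2.83 (-3.14 to -2.54) in G2.

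**Figure D4:**
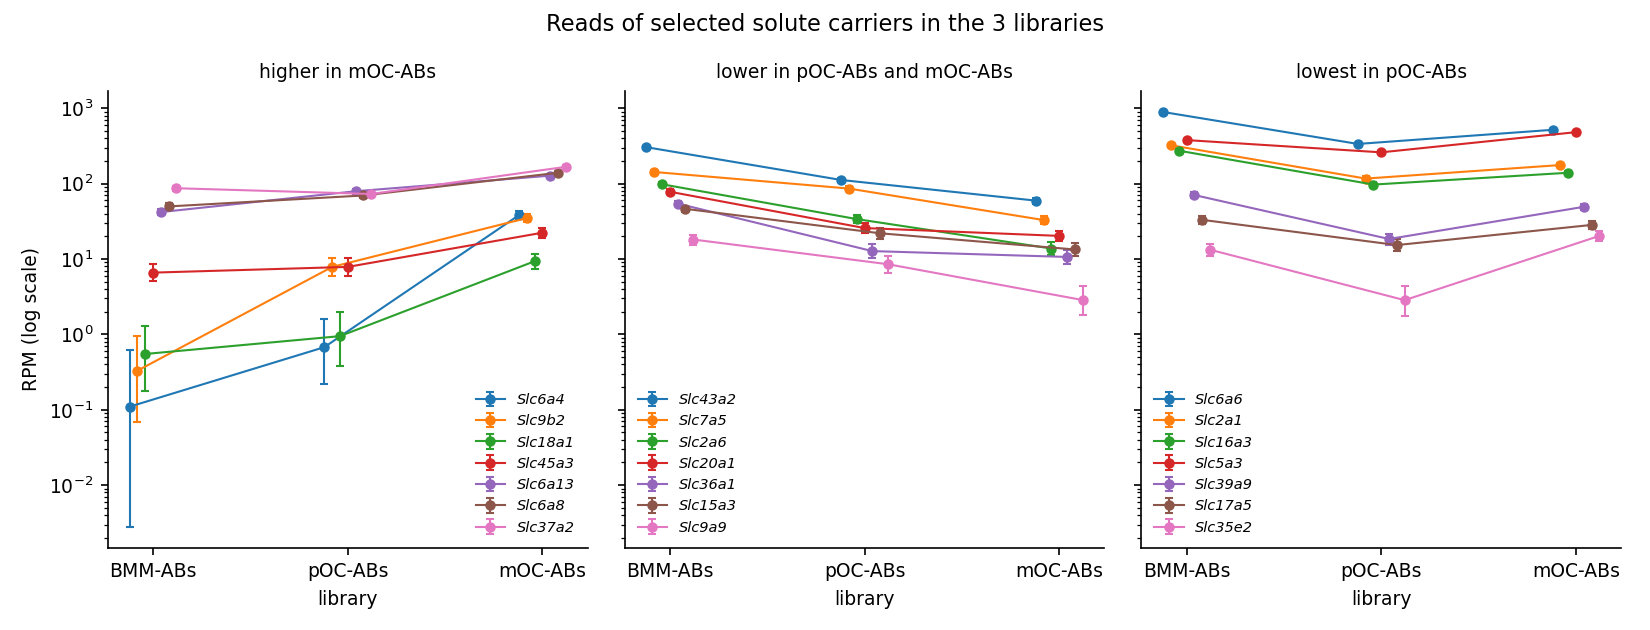
RPM (y axis, log scale) of 21 solute carriers in the 3 libraries (x axis), in panels of genes higher in mOC-ABs, lower in both RANKL libraries and lowest in pOC-ABs. Bars are exact 95% Poisson intervals and cover counting error only. Slc6a4 and Slc9b2 start at 1 and 3 reads and reach 295 and 269, while Slc2a1 and Slc16a3 dip in pOC-ABs.

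Other named genes with their lowest RPM in pOC-ABs came from several classes. Slc39a9, a zinc carrier of the ZIP family, had 642, 136 and 379 reads and -1.94 (-2.22 to -1.67) in G1 and 1.42 (1.13 to 1.71) in G3, and its summed FPKM gave 0.69 in G3. In pOC-ABs 55 of its reads were on Slc39a9-201, which held 547 in BMM-ABs and 301 in mOC-ABs. The span of Slc39a9 overlaps Erh on the opposite strand, a gene with 422, 388 and 492 reads. Since strand is not stated, the reads of Slc39a9 are uncertain. Slc35e2, an orphan member of the nucleotide sugar family, had 121, 21 and 156 reads and 2.83 (2.17 to 3.56) in G3. The 6 lncRNA transcripts that overlap Slc35e2 had 63, 134 and 42 reads, highest in pOC-ABs, so that its reads are uncertain. Slc17a5, the lysosomal sialic acid exporter, had 301, 113 and 218 reads and -1.11 (-1.44 to -0.80) in G1. The ascorbate carrier Slc23a2 had 1599, 688 and 1369 reads, with -0.92 (-1.05 to -0.79) in G1 and 0.02 (-0.09 to 0.12) in G2. Over all 175 carriers, 69 (39.4%) were lowest in pOC-ABs and 67 (38.3%) were lower at each step from BMM-ABs to mOC-ABs, while over all genes these shares were 31.6% and 22.0%.

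Amino acid carriers known as targets of ATF4, the transcription factor of the amino acid response, were lower in both comparisons with BMM-ABs. Of 9 listed, 8 had 50 or more reads, and Slc7a3 did not. All 8 had intervals below 0 in G1 and in G2, as had 34.4% and 35.8% of all genes. In G1 1 of them (12.5%) was below 0.5, a smaller share than the 18.9% of all carriers, against 4.94% of all genes. In G2 6 (75%) were, against 16.6% of all carriers and 7.75% of all genes. The medians of the 8 were -0.62 and -1.25. Slc7a5, the light chain for large neutral amino acids, had 1298, 635 and 253 reads and -2.12 (-2.32 to -1.92) in G2. Its partner Slc3a2 had 1775, 1022 and 669 reads and -1.17 (-1.30 to -1.04). Both were lower at each step.

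Slc7a11, the cystine-glutamate exchanger whose promoter is shown above, had 625, 408 and 210 reads and -1.33 (-1.57 to -1.11) in G2. Slc7a1, for arginine and lysine, had 1931, 786 and 730 reads and -1.16 (-1.29 to -1.04). Slc1a4, for alanine, serine and cysteine, had 147, 84 and 42 reads and -1.57 (-2.10 to -1.06), and Slc6a9, for glycine, 591, 238 and 190 reads and -1.40 (-1.64 to -1.16). The glutamine carrier Slc1a5, with 2036, 1157 and 1085 reads, had -0.67 (-0.78 to -0.56) and was within the limit. Slc38a2, given above among the osmolyte carriers, is also on the ATF4 list and was within the limit at -0.18. It was the only listed gene with a G3 value above 0, at 0.58. In the windows that include the 50 bases after the start, TGATGNAA was found in 2 of the 9 promoters listed for 6 of the ATF4 genes, and in the 250 bases before the start in that of Slc7a11 only.

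Outside this list, Slc43a2, another carrier of large neutral amino acids, had the lowest G2 value of its class in summed reads, together with Slc36a1. Slc43a2 had 2767, 825 and 458 reads, with -1.44 (-1.56 to -1.33) in G1 and -2.35 (-2.50 to -2.21) in G2. With summed FPKM the G2 values were -1.35 for Slc43a2 and -1.02 for Slc36a1, and Slc7a5 was lower than both at -2.06. The leading transcript of Slc43a2, Slc43a2-211, had 2495, 675 and 131 reads. A lncRNA that overlaps its 5′ end (ENSMUST00000209836, chr11:75530277-75533071) had 226, 183 and 152 reads.

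The list of lysosomal and endosomal carriers held 9 genes, of which 5 were below 0.5 in G1 and 7 in G2, with medians of -1.08 and -1.23. These are 55.6% and 77.8% of the list, against 4.94% and 7.75% of all genes. Slc2a6 and Slc37a2, placed in lysosomes above, were not on the list. Slc2a6 was below 0.5 in both comparisons, while Slc37a2 was higher in mOC-ABs than in BMM-ABs. Slc36a1, which returns small amino acids from lysosomes, had 495, 94 and 82 reads and -2.35 (-2.71 to -2.01) in G2. Its longest transcript, Slc36a1-203, had 458, 52 and 31 reads, and its summed FPKM gave -0.43 in G1. Slc15a3 and Slc15a4, which carry histidine and peptides out of endolysosomes in immune cells, had 421, 162 and 103 and 599, 214 and 175 reads, with G2 values of -1.79 (-2.12 to -1.48) and -1.54 (-1.79 to -1.29). On protein-coding transcripts alone Slc15a4 had -0.57 in G1 and -0.70 in G2, and Slc15a3 had -0.72 in G1, all within the limit.

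Slc9a9, a sodium-proton exchanger of endosomes, had 165, 63 and 22 reads and -2.67 (-3.38 to -2.02) in G2. The 8 lncRNA transcripts that overlap Slc9a9 had 86, 43 and 12 reads, so that its reads are uncertain. Slc38a9, the lysosomal arginine carrier that signals to mTORC1, had 260, 156 and 94 reads and -1.23 (-1.58 to -0.88). Slc29a3, the lysosomal nucleoside carrier, had 226, 109 and 92 reads and -1.06 (-1.42 to -0.70), and Slc46a3 94, 49 and 36 reads and -1.14 (-1.74 to -0.58). The heme carrier Slc48a1 differed from these, with 653, 554 and 519 reads and -0.09 (-0.26 to 0.08). Slc17a5, given above, is also on the list and was within the limit in G2. It had 33.1, 15.3 and 28.3 RPM and the highest G3 value of the list, 0.89.

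Of 13 listed carriers with a known place in osteoclasts, 11 (84.6%) had a log2 ratio below 0 in G2, against 57.6% of all genes. The other 2, Slc9b2 and Slc37a2, had one above 0. Of these 13, 1 (7.69%) was above 2 and 7 (53.8%) were below 0.5 in G2, against 2.68% and 7.75% of all genes. Slc7a5, Slc3a2, Slc1a5, Slc29a3, Slc36a1 and Slc2a1 are also on lists given above, so that the counts of the lists are not independent. Among the genes below 0.5, Slc7a5, Slc3a2, Slc29a3 and Slc36a1 were already counted there. The median was -1.03. Slc9b2 was the gene above 2. The phosphate carrier Slc20a1 had 710, 190 and 156 reads and -1.95 (-2.21 to -1.69), while its relative Slc20a2 had 185, 95 and 137 reads and -0.19 (-0.52 to 0.13). Slc20a2 overlaps Smim19 on the opposite strand, which had 94, 129 and 137 reads, so that the reads of Slc20a2 are uncertain. Slc4a7, a sodium-bicarbonate cotransporter, had 607, 347 and 223 reads and -1.20 (-1.43 to -0.98). The sodium-calcium exchanger Slc8a1 had 166, 72 and 69 reads and -1.03 (-1.45 to -0.61). Scaled by the upper quartile, its value was -0.95, within the limit. The 18 lncRNA transcripts that overlap Slc8a1 had 217, 114 and 80 reads, so that its reads are uncertain.

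Among the remaining classes, the choline carrier Slc44a1 had 1414, 765 and 732 reads and -0.71 (-0.84 to -0.58) in G2. The zinc carrier Slc39a1 had 1541, 697 and 956 reads and -0.45 (-0.57 to -0.33), and Slc30a9, of the zinc exporter family, 806, 739 and 625 reads and -0.13 (-0.28 to 0.03). The acetyl-CoA carrier Slc33a1 had 308, 281 and 195 reads and -0.42 (-0.69 to -0.16).

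In most carriers the same transcript led in the 3 libraries, about as often as over all genes. Among 73 carriers with 200 or more reads in each library, 60 (82.2%) had the same leading transcript in all 3, and over 5898 protein-coding genes 79.7% did. A transcript share that differed by 50 points or more was found in 8 carriers (11.0%), against 7.56% of all these genes, while the median difference was smaller in the carriers, at 6.29 points against 8.94. The assignment of reads to transcripts of 1 gene was made by the authors' counting and has no replicate check.

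Slc12a4, a potassium-chloride cotransporter, had 42.3%, 18.7% and 88.1% of its reads on Slc12a4-202 and 51.9%, 71.8% and 4.76% on Slc12a4-201. In its relative Slc12a7 the protein-coding transcript Slc12a7-201 held 2.91%, 70.5% and 18.5%, and the retained intron Slc12a7-202 held 49.8%, 10.7% and 29.1%. Slc25a13, the aspartate-glutamate carrier, had 5.20%, 6.21% and 72.9% on Slc25a13-203, while its summed reads were 519, 515 and 594. Slc35c1, which brings GDP-fucose into the Golgi, had 33.0%, 84.1% and 93.8% on Slc35c1-201. Slc25a51, the mitochondrial NAD carrier, had 35.3%, 83.7% and 91.2% on Slc25a51-202, and Slc35b2, which supplies the sulfate donor to the Golgi, had 57.9%, 3.92% and 50.5% on Slc35b2-205.

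**Figure D5:**
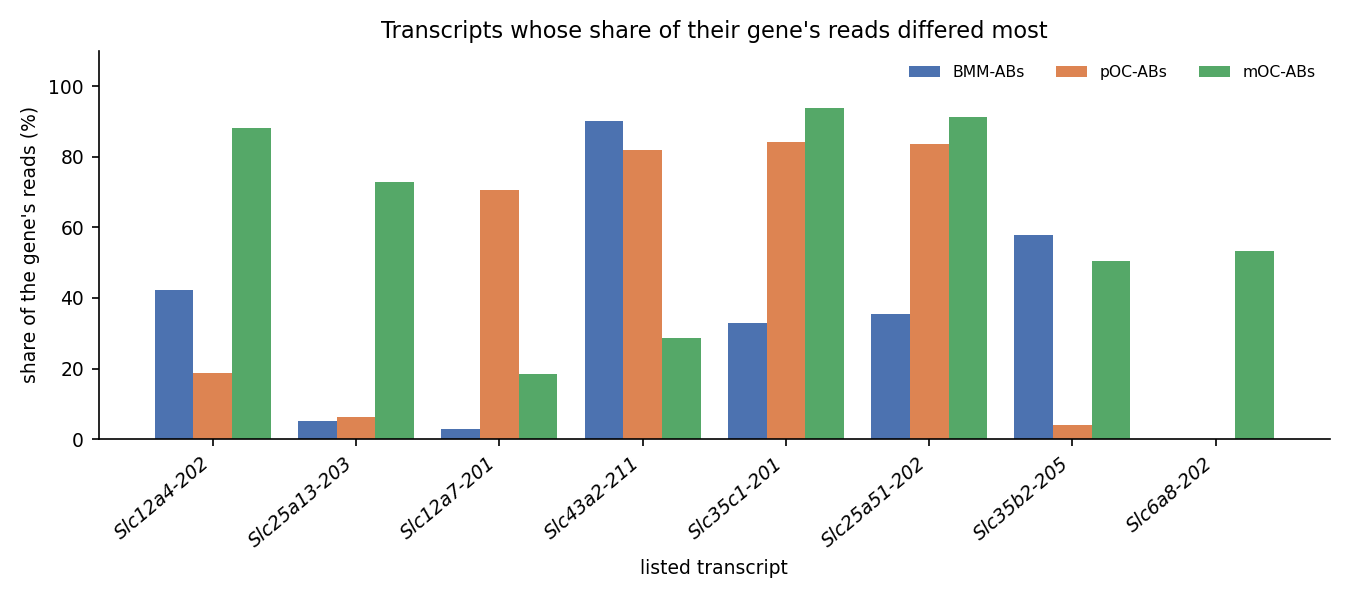
Share of a gene's reads (y axis, percent) on 1 listed transcript (x axis) in the 3 libraries, for the 8 carriers with the largest difference between libraries. Slc6a8-202 had 0% in BMM-ABs and pOC-ABs and 53.2% in mOC-ABs, and Slc12a7-201 was highest in pOC-ABs at 70.5%.

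Transcripts not annotated as protein-coding held 12.9%, 12.3% and 12.8% of the carriers' reads in the BMM, pOC and mOC libraries, and 9.77%, 8.50% and 8.07% of the reads of all protein-coding genes. Retained introns made up most of them, with 9.73%, 9.50% and 9.01% of the carriers' reads and 5.80%, 4.95% and 4.39% over all genes. The single transcript Slc27a1-205 held 3451, 2273 and 3077 of the 10860, 6067 and 6839 retained intron reads of the carriers. Without Slc27a1, left out after its values were seen, retained introns held 6.45%, 5.85% and 4.93% of the carriers' reads, and transcripts not annotated as protein-coding 9.68%, 8.76% and 8.86%. Transcripts of nonsense-mediated decay held 1.49%, 1.56% and 2.74% of the carriers' reads, and 2.38%, 2.09% and 2.18% over all genes. Of the 2079 such reads of the carriers in mOC-ABs, 571 were those of Slc6a8-202.

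The table of circRNAs listed 18 back-splice junctions in 15 carrier genes out of 1372 junctions, with 35, 18 and 31 of the 3413, 2380 and 4014 junction reads in the same order of libraries. These are 1.03%, 0.756% and 0.772% of the junction reads, beside the carriers' 1.23%, 0.865% and 0.985% of the mRNA reads. Only 1 of the 18 was seen in all 3 libraries, an exonic circle in Slc43a2 (chr11:75543158-75545830) with 6, 3 and 6 junction reads. An exonic circle in Slc38a1 (chr15:96609856-96624169) had 0, 0 and 7. At these depths no ratio between libraries can be read.

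Long non-coding RNAs overlapped 104 of the members, with 226 listed transcripts that held 4161, 2667 and 2338 reads. The lncRNA NONMMUT047303.2 at Slc44a1 (chr4:53565750-53567810) had 480, 46 and 5 reads in the BMM, pOC and mOC libraries, while the gene itself had 1414, 765 and 732. At Slc25a39 the lncRNA NONMMUT012141.2 (chr11:102403146-102403401) had 499, 407 and 479 reads. Since strand is not stated, reads of a lncRNA and of the gene it overlaps cannot be told apart.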

How the data were processed

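RNA of apoptotic bodies was purified on poly-T beads and sequenced as paired-end reads on an Illumina NovaSeq, 1 library per group. The submitters' processing notes name FastQC, HISAT2, StringTie and GRCm38 without versions, and the counting tool and the use of strand are not given in the sources used here. The authors deposited the read count and the FPKM of each mRNA transcript, the read count of each lncRNA transcript and the junction read count of each circRNA. The deposited FPKM used the total of the mRNA table as its depth, which 96.0% to 96.3% of the transcripts with over 100 reads gave back within 1%.

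GENCODE M21 gave the gene of each transcript, and the 0.129% to 0.152% of reads on transcripts outside it went into totals only. Counts were summed per gene and divided by the mRNA table total, with 50 or more reads over the 3 libraries required. With 1 library per group no p-value or SD was computed, and 95% intervals (Clopper-Pearson for ratios, Wilson for shares) cover counting error only, since reads carry no molecular identifiers. Python 3.11.15, pandas 2.3.3, numpy 2.4.6 and scipy 1.17.1 were used. The ratio intervals were tested on simulated Poisson counts, which hold counting error only and cannot show differences between replicate libraries. Promoter windows and their sequences came from RefSeq (GRCm38.p6).

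The members, gene lists and named genes were chosen with earlier results of these data known. Named were the 12 highest by mean FPKM, up to 8 genes past the limit with the most reads in each comparison and direction, the 2 with the most reads in each transport class, the genes of the 5 lists and the 8 with the largest transcript share difference. The osmolyte list, the Tmem and Abc genes and the length quartiles were chosen after values were seen. Alternatives were 3 other scalings, protein-coding transcripts only, summed FPKM with and without a pseudocount of 1, other read minimums and a fold limit of 1.5. Some genes that the naming rule selects are not reported here.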

Additional observations from a re-analysis of the deposited data

How the results depend on the processing

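With median-of-ratios size factors, the upper quartile or the reads of protein-coding genes as the total, every count of genes past the limit stayed within 1.5 times its value (22 to 34 genes below 0.5 in G1), and the median of the carriers stayed 0.45 below that of all genes in G1 and 0.37 below it in G2. The G3 median was near 0 throughout, from -0.03 to 0.06. Protein-coding transcripts only gave 8 genes above 2 in G1, 13 above 2 in G3 and 12 below 0.5 in G3. Summed FPKM with a pseudocount of 1 gave 1 above 2 and 13 below 0.5 in G1 and 3 below 0.5 in G3. Without a filter 7 genes were above 2 in G1 and 10 below 0.5 in G3. At a fold limit of 1.5, 11 were above and 73 below in G1, 73 below in G2, and 26 above and 21 below in G3. The 63 ratios of named genes past the limit had 378 values under 6 alternatives, of which 325 stayed past it, 51 values of 20 genes did not but kept their direction, and 2 changed direction on protein-coding transcripts alone, those of Slc2a3 in G1 (0.49) and Slc6a8 in G3 (-0.25). The cause of these changes was not tested, except that the pseudocount pulls low levels toward 0 by construction. No replicate could be left out, because no group has a second library, and no paired analysis was possible because each group has 1 library, so that the groups share fewer than 2 replicate numbers and no test was made. Depth limits genes with few reads most, such as Slc6a4 and Slc9b2 in BMM-ABs.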

Other observations

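Values of pseudogenes bear on what the reads of the carriers measure. The processed pseudogene Slc39a1-ps, which is no member, had 20, 5 and 11 reads in the BMM, pOC and mOC libraries, against 1541, 697 and 956 reads of Slc39a1. The polymorphic pseudogene Slc22a13b-ps had 6, 0 and 6 reads.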
